A study of Mus musculus with 8 samples.

Results

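LP245/+ livers were set against LPfl/+ livers, that is, livers whose hepatocytes make p53R245W beside 1 wild-type Trp53 allele against livers whose hepatocytes keep 1 wild-type allele and have lost the other. The members were chosen by the genotype in their labels and make up 5 of the 8 livers of the study, 3 LP245/+ (Alb-CreTG, Trp53wm-R245W/+) and 2 LPfl/+ (Alb-CreTG, Trp53fl/+). All were livers of males placed at 21 days of age on a high-fat, choline-deficient (HFCD) diet and kept on it for 3 months. The other 3 livers, LP+/+, carried no Cre (Alb-Cre0), so that their engineered alleles stayed unrecombined. Replicates 1 and 2 of LP+/+ were Trp53fl/+ and replicate 3 was Trp53wm-R245W/+. Alb-Cre is driven by the albumin promoter and acts in the epithelium of the liver, hepatocytes and bile duct cells, so that immune, endothelial and stellate cells kept unrecombined alleles. Strain and time of day at collection were not given in the sources used here. The comparison asks which genes differ between a mutant allele and a missing allele, where both genotypes hold the same number of wild-type alleles.

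p53 is a transcription factor that stress stabilizes. It binds DNA as a tetramer and switches on genes that halt the cell cycle, such as Cdkn1a, or kill the cell, such as Pmaip1. R245 of mouse p53 is a DNA contact residue, the counterpart of a hotspot of human cancers, and a mutant subunit can join wild-type subunits in a tetramer. A diet rich in fat and short of choline, which the liver needs to export triglyceride, loads hepatocytes with fat and stresses them.

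Trp53 itself, the targeted gene, was read first as a check of the labels. Its level, as normalized read counts (counts divided by each library's size factor), was 127 and 178 in the LPfl/+ livers and 316, 294 and 194 in the LP245/+ livers. The LP+/+ livers held 226, 258 and 202. The livers with a deleted allele thus held the 2 lowest levels of the 8, which is what their labels call for. The log2 fold change of LP245/+ over LPfl/+ was 0.82 ± 0.24 (SE), with an edgeR quasi-likelihood adjusted p of 0.407. Counts per gene cannot separate mutant from wild-type transcripts. The liver label also held: all 14 hepatocyte markers were detected, Alb (albumin) at 2194000 to 2615000 normalized read counts in the 5 livers. Marker lists of the liver's other cells summed to 7813 to 10600 for cholangiocytes, 15880 to 19320 for stellate cells and 15820 to 22910 for sinusoidal endothelium. The cholangiocyte list, which includes Krt8 and Krt18, had a mean log2 level per member of only 6.36 to 7.16, so a few abundant members set its sum. Of 13 pancreatic acinar and adipocyte markers, 3 had more than 3 counts in all 5 livers, and Prss2, Cel, Amy2a5, Ctrb1 and Lep were at 0 in all 5. The summed level of the 13 was 781 to 1285 in the 5 livers.

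The libraries differ in one further way that follows the genotypes. The library numbers in the table's header fall into 2 consecutive runs far apart. All LP245/+ livers belong to the lower run, called series 1 here, with LP+/+ replicates 2 and 3. Both LPfl/+ livers belong to the higher run, series 2, with LP+/+ replicate 1. What separates the series, a collection, an extraction or a run, was not given in the sources used here, so genotype and series cannot be told apart within the 5 livers. The first principal component of all genes (31.1% of the variance) set the 5 livers of series 1 at 15.1 to 28.2 and the 3 of series 2 at -42.6 to -26.7, with LP+/+ replicate 1 beside the LPfl/+ livers. The LP+/+ livers hold the only values that bear on this. Their difference between series (mean of replicates 2 and 3 against replicate 1) is therefore given beside the results, as is a fit with series as a covariate, whose series term rests on the lone LP+/+ liver of series 2. Depth was even, at 26304526 to 29846962 counts in the 5 livers.

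Of 16496 genes tested with edgeR's quasi-likelihood test, 0 (0.0%) passed a cutoff of 1 for the absolute log2 fold change and 0.05 for the Benjamini-Hochberg adjusted p. The lowest adjusted p was that of Fgf21, 0.0818. Unadjusted p was below 0.05 for 1404 genes (8.51% of those tested), 672 of them higher in LP245/+ livers (4.07%) and 732 lower (4.44%). Of these genes 403 (2.44%) also differed by 1 or more on the log2 scale, 141 of them higher (0.855%) and 262 lower (1.59%). Scaled by library totals alone the split became 382 higher and 1006 lower, while the median over all genes went from 0.004 to -0.068. The 3 values of one genotype lay wholly above or below the 2 of the other for 4185 genes (25.4%), above it for 1994 (12.1%) and below it for 2191 (13.3%). DESeq2 on the same counts put 56 genes past the cutoff (0.389% of 14382), 29 of them higher (0.202%) and 27 lower (0.188%), and 95 genes at any fold (0.661%), 59 higher (0.41%) and 36 lower (0.25%). Each of the 56 had an unadjusted edgeR p below 0.05. Restricting the edgeR fit to the 5 livers put 51 genes past it, 21 of which were among the 56, and leaving LP+/+ replicate 1 out of the fit put 47 past it. An exact permutation test of 3 livers against 2 has 10 arrangements and cannot go below a 2-sided p of 0.2. Because no gene passed the main test, values in single livers come first below, p-values are read as a ranking, and DESeq2 calls are named as such. Counts of list members at p below 0.05 are to be read beside the shares of all genes given here.

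Shown first are 4 promoters of genes whose control is well known, since each belongs to a list of related genes whose values follow. Fgf21, Cdkn1a and Hspa1b were among the 12 smallest p-values, and Ciart stands for the clock genes. The windows run from 250 bases before to 50 bases after the start site and were taken from RefSeq on GRCm38.p6, 5′ to 3′ on the gene's strand, with matches on either strand in capitals. Fgf21 encodes a hormone that hepatocytes release under nutrient and amino acid stress, and the capitals in its window mark TTGCATCA, a C/EBP-ATF composite element at which ATF4 can bind, and an E-box, CACGTG. Cdkn1a encodes the cell cycle inhibitor p21, and the capitals mark matches to the p53 half-site. Hspa1b encodes an inducible HSP70 chaperone, and the capitals mark GAANNTTC, the unit of a heat shock element. Ciart encodes a repressor of the circadian clock, and the capitals mark the E-boxes at which CLOCK and ARNTL can bind.
Fgf21, chr7:45615441-45615740, minus strand: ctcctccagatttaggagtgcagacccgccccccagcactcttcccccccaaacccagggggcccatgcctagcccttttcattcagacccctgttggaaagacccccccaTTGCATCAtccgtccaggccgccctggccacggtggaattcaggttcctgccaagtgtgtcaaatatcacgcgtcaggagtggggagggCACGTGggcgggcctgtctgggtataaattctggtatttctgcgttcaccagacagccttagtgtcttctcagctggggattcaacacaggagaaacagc
Cdkn1a, chr17:29090729-29091028, plus strand, the first of its 2 windows: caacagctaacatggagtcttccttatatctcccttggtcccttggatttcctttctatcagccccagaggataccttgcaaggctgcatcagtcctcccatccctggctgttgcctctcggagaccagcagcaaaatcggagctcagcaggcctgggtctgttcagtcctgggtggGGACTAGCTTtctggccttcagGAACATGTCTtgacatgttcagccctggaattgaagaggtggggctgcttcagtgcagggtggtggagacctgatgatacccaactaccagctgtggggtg
Hspa1b, chr17:34959189-34959488, minus strand: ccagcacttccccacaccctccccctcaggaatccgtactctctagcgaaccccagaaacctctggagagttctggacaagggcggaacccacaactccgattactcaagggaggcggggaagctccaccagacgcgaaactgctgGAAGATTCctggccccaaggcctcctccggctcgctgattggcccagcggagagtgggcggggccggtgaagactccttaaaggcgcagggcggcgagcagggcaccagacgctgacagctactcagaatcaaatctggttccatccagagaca
Ciart, chr3:95882179-95882478, minus strand: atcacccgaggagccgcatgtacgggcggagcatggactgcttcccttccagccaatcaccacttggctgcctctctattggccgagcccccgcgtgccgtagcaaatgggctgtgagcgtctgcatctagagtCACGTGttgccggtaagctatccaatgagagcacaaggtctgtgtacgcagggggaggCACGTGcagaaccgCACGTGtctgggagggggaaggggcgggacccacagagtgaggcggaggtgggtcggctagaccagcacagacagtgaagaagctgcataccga
Of all 32851 windows, 0.895% held TTGCATCA, 7.15% an E-box, 7.86% GAANNTTC and 8.36% a p53 half-site. By gene, GAANNTTC was found for 11 of 18 heat shock chaperones with a window, against 9.04% of all 27025 genes with one. The p53 half-site was found for 14 of 44 p53 target genes (9.55% of all), TTGCATCA for 7 of 40 genes of the integrated stress and unfolded protein responses (1.03% of all), and an E-box for 5 of 18 clock genes (8.09% of all). A match describes letters in the window and was not measured as a bound site. Both strands were searched, and no match to one motif printed here overlaps a match to another.

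Fgf21 stood first of all genes tested. Its levels were 74.0 and 68.7 normalized read counts in the LPfl/+ livers and 227, 190 and 217 in the LP245/+ livers. No LP245/+ liver came near an LPfl/+ liver, and the LP+/+ livers, at 118, 117 and 126 in both library series, lay between the genotypes. The gene (chr7:45613886-45615490, minus strand, GRCm38) was 2.97-fold higher in LP245/+, a log2 fold change of 1.57 ± 0.17 (SE) with adjusted p = 0.0818 by edgeR and 1.41e-07 by DESeq2. With series as a covariate the log2 fold change was 1.52. Against the LP+/+ livers of its own series, Fgf21 was 0.79 higher on the log2 scale in LP245/+ and -0.72 in LPfl/+, so that the genotypes departed from LP+/+ in opposite directions.

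**Figure D1:**
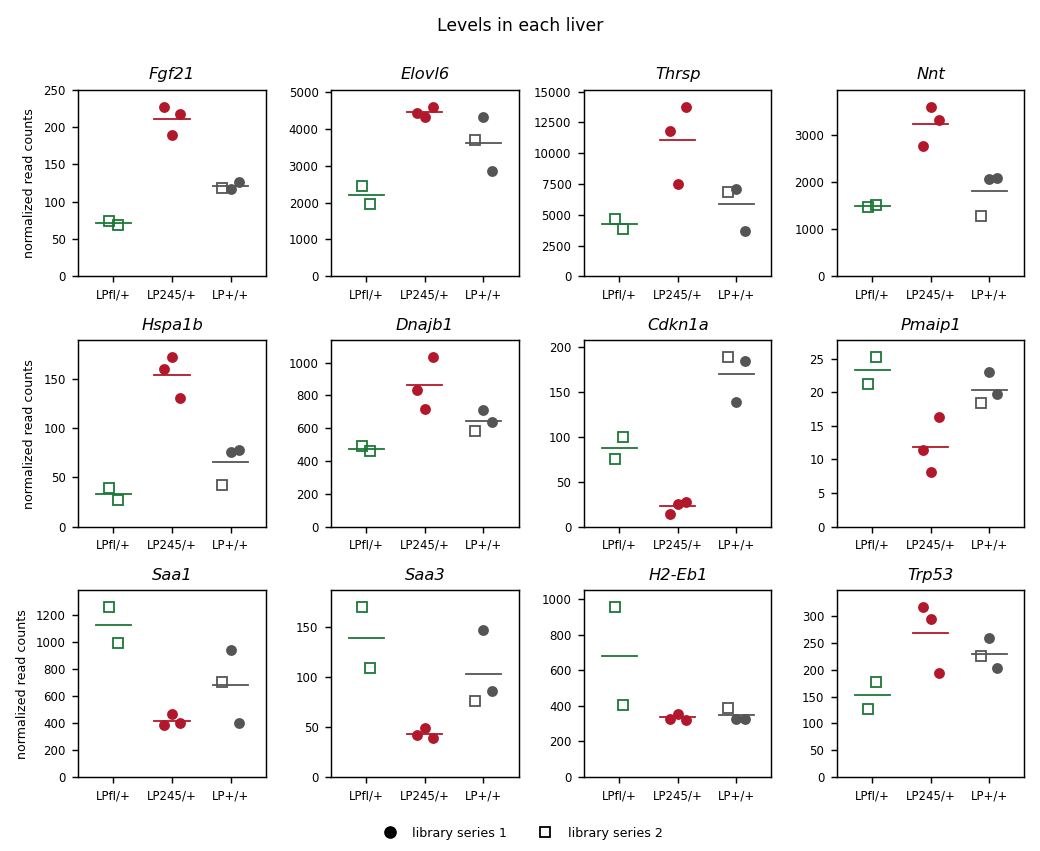
Normalized read counts (y, linear from 0) of 12 genes in each of the 8 livers, with the genotype on the x axis, filled circles for library series 1, open squares for series 2 and a line at the mean of each genotype. Fgf21, Hspa1b, Cdkn1a and Saa3 show no overlap between LPfl/+ and LP245/+ livers, and for Fgf21 and Cdkn1a the LP+/+ squares sit with the LP+/+ circles.

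Among metabolic genes, those of de novo lipogenesis, which builds fatty acids from acetyl-CoA, were nearly all higher in value in LP245/+ than in LPfl/+ livers. Of 21 members tested, 20 were higher in LP245/+ livers, against 8373 of the 16496 genes tested, and 9 of the 21 were so at an unadjusted p below 0.05 (4.07% of all genes), while 0 were lower at that p. The median log2 fold change was 0.33, beside 0.004 for all genes. With 1 of the 5 livers left out, 4 members (without LPfl/+ replicate 2) to 8 were at that p, all higher, with medians of 0.33 to 0.45. Elovl6, the elongase that turns palmitate into stearate, read 2441 and 1973 normalized counts in LPfl/+ livers against 4429, 4331 and 4605 in LP245/+ livers. The log2 fold change came to 1.01 ± 0.18, with adjusted p = 0.362 by edgeR and 4.3e-05 by DESeq2. The LP+/+ livers held 3707, 4338 and 2852, above both LPfl/+ livers and without a split by series. Thrsp, the Spot14 protein that promotes lipogenesis, was at 4643 and 3879 in LPfl/+ and at 11820, 7531 and 13770 in LP245/+ livers, a log2 fold change of 1.37 ± 0.31 (DESeq2 adjusted p = 0.000536). Me1, malic enzyme, which supplies NADPH to fatty acid synthesis, had values of 2186 and 2098 in LPfl/+ and of 2810, 3082 and 3060 in LP245/+ livers, a log2 fold change of 0.48 ± 0.12. Scd1, the desaturase that makes oleate, differed by 0.83 ± 0.25 (DESeq2 adjusted p = 0.0327, under the fold cutoff), Fasn, fatty acid synthase, by 1.25 ± 0.40, and Lpin1, a phosphatidate phosphatase, by 1.48 ± 0.48. Scd1, Fasn and Lpin1 fall outside the rule for naming genes and were added for their part in the pathway. The LP+/+ livers held 6877, 7118 and 3706 for Thrsp and 3683, 3675 and 3027 for Me1. They held 291100, 241600 and 171400 for Scd1, 38740, 21340 and 17040 for Fasn and 4201, 4266 and 8329 for Lpin1. Against LP+/+ livers of the same series, the list's median was 0.26 in LP245/+ and -0.65 in LPfl/+ livers, the latter against LP+/+ replicate 1 alone. The LP+/+ livers differed between series the other way for the list, with a median of -0.36, so that the covariate raised the median to 0.90 with 14 members at p below 0.05.

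Aacs, acetoacetyl-CoA synthetase, which feeds ketone bodies into lipid and sterol synthesis, was the only gene past the cutoff with DESeq2, in the 5 livers alone and with series as covariate. It was at 860 and 984 normalized read counts in LPfl/+ and at 2353, 2183 and 2046 in LP245/+ livers. The groups did not overlap and the log2 fold change was 1.25 ± 0.32 (adjusted p = 0.362 by edgeR over the 8 livers, 0.00556 by DESeq2 and 0.00405 by edgeR over the 5 livers). LP+/+ replicate 1, at 2492, exceeded all 5 livers, and replicates 2 and 3 held 1406 and 947. The result with the covariate rests on LP+/+ replicate 1, the only LP+/+ liver of series 2. Aacs was picked after its values were seen.

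Cholesterol synthesis genes and other targets of SREBP2 gave no member at p below 0.05 in either direction (0 of 25), with a median of 0.14. LP+/+ replicate 1 stood apart on this list. Sqle, squalene epoxidase, stood at 3535 in that liver and at 198 to 587 in the other 7, and the list's LP+/+ median difference between series was -1.24. With series as covariate its median became 1.38, with 24 of 25 members higher at p below 0.05, a value that rests on LP+/+ replicate 1.

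Genes of PPAR alpha and fatty acid oxidation were mostly a little higher in LP245/+ livers, 30 of 34, with a median of 0.10. Members higher at p below 0.05 numbered 8 without LP+/+ replicate 1 and 2 with all livers, Fgf21 and Ppara, the receptor itself, at 4366 and 4718 in LPfl/+ against 5664, 6022 and 6127 in LP245/+ livers (0.39 ± 0.15). Cyp4a14, an omega-hydroxylase and sensitive PPAR alpha target, read 2298 and 1185 in LPfl/+ against 5535, 7736 and 4975 in LP245/+ livers, and 118, 8610 and 16180 in LP+/+ livers. These LP+/+ values span both genotypes and split by series, and with the covariate the list's median was -0.37, with Ppara at -0.01. Lipid droplet genes had 2 of 19 members at p below 0.05, both higher and of the CIDE family that enlarges droplets and lipoproteins. Cideb was at 385 and 377 in LPfl/+ and at 468, 519 and 435 in LP245/+ livers (0.32 ± 0.13). Cidea, a gene of fatty livers, was scarce, at 3.04 and 5.05 in LPfl/+, 20.7, 14.2 and 11.2 in LP245/+ and 0, 4.80 and 3.76 in LP+/+ livers.

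In glucose metabolism 6 of 24 members were higher and 2 lower at p below 0.05 (33.3%, against 8.51% of all genes), with a median of 0.13. Without LPfl/+ replicate 2 there were 3 higher, and the median was -0.05. The LP+/+ livers differed between series by a median of 0.14 for this list, and the covariate left 0.003. Pfkfb1, the liver enzyme that sets the level of fructose 2,6-bisphosphate and so of glycolytic flux, was at 634 and 723 in LPfl/+ and at 1385, 1032 and 1297 in LP245/+ livers (0.87 ± 0.16, DESeq2 adjusted p = 0.00159). Pfkfb3, its inducible relative, was at 239 and 207 against 500, 282 and 456. G6pc, the catalytic subunit that releases glucose, pointed the other way, with 25610 and 12830 in LPfl/+ against 8859, 12350 and 8775 in LP245/+ livers (-0.94 ± 0.39), while Slc37a4, the transporter that hands it glucose 6-phosphate, was higher by 0.47 ± 0.12. G6pc was added outside the rule. G6pc was at 32730 in LP+/+ replicate 1 and at 12440 and 17370 in the other LP+/+ livers, and its sign turned with the covariate (0.20).

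Cytochrome P450 genes and their nuclear receptors gave the largest median of the metabolic lists, 0.60, with 25 of 26 higher, 19 without overlap between the groups (12.1% of all genes) and 7 at p below 0.05. The number at that p was 18 without LP+/+ replicate 1, 3 without LPfl/+ replicate 2 or LP245/+ replicate 2, and 4 without LPfl/+ replicate 1 or LP245/+ replicate 3. The LP+/+ livers were split by series for this list too, with a median of 1.10, and the covariate turned its median to -0.32. Por, the reductase that passes electrons to every microsomal P450, shows why both figures are given. It was at 1842 and 1491 in LPfl/+ livers and at 4784, 3676 and 3522 in LP245/+ livers, but at 1667 in LP+/+ replicate 1 and at 4120 and 3545 in replicates 2 and 3, so that every liver of series 1 lay above every liver of series 2 whatever the genotype. Cyp2c37 had the same order, with 2956 and 2931 in LPfl/+, 6082, 7877 and 7866 in LP245/+ and 2421, 5831 and 7699 in LP+/+ livers. Cyp2b13 was at 4.05 and 0 in LPfl/+, 57.9, 111 and 19.4 in LP245/+ and 0.97, 278 and 255 in LP+/+ livers, and its reads can be shared with near-identical Cyp2b copies. Ahr, the dioxin receptor, was higher by 0.86 ± 0.27, and by 0.10 with the covariate.

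Bile acid genes had 1 of 26 members at p below 0.05 (3.85%, against 8.51% of all genes), the sterol exporter Abcg8 (0.33 ± 0.14). Cyp7a1, the rate-limiting enzyme of bile acid synthesis, ranged from 1869 to 5924 in LP245/+ livers against 1462 and 1777 in LPfl/+ livers, a log2 fold change of 1.12 ± 0.56 (adjusted p = 0.624 by edgeR). Cyp8b1, which makes cholic acid, was lower in value, by -0.48 ± 0.24. Choline and methyl group metabolism, which the diet burdens directly, had 2 of 25 members higher and 1 lower at that p. Gnmt, the enzyme that consumes S-adenosylmethionine, was at 34430 and 25180 in LPfl/+ and at 37350, 40310 and 44030 in LP245/+ livers (0.45 ± 0.17). Shmt1 of the folate cycle differed by 0.34 ± 0.12, with LP+/+ livers at 6101 to 6634 in both series. Chka, choline kinase, was at 2048 and 2094 in LPfl/+ and at 1206, 1629 and 1438 in LP245/+ livers, but at 2316 in LP+/+ replicate 1 and at 1540 and 1445 in the others. Of the 18 pericentral genes tested, which Wnt signals sustain around the central vein, 15 were higher and 4 at p below 0.05. That count was 1 without LP245/+ replicate 2 and 2 without LPfl/+ replicate 2, and without LPfl/+ replicate 1 it was 0, with 2 members lower. Among the 4, Glul, glutamine synthetase, was at 22070 and 28130 in LPfl/+ and at 29790, 33990 and 33680 in LP245/+ livers, and Slc1a2, a glutamate transporter, at 3665 and 4342 against 5362, 5639 and 5241 (0.44 ± 0.12), with LP+/+ livers at 4848 to 5029. Urea and amino acid genes had 3 of 23 at that p, all higher (13.0%, against 4.07% of all genes), and 0 higher without LP245/+ replicate 2 or 3. Their median of 0.19 was 0.37 without LPfl/+ replicate 1 and 0.07 without LPfl/+ replicate 2. Periportal genes had 1 of 17, which was lower, and 4 higher without LPfl/+ replicate 1. Nnt, the mitochondrial transhydrogenase that makes NADPH, was at 1475 and 1520 in LPfl/+ and at 2774, 3607 and 3316 in LP245/+ livers (1.11 ± 0.21, DESeq2 adjusted p = 0.00011). Its LP+/+ livers were split, 1292 in series 2 and 2060 and 2085 in series 1, below every LP245/+ liver.

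**Figure D2:**
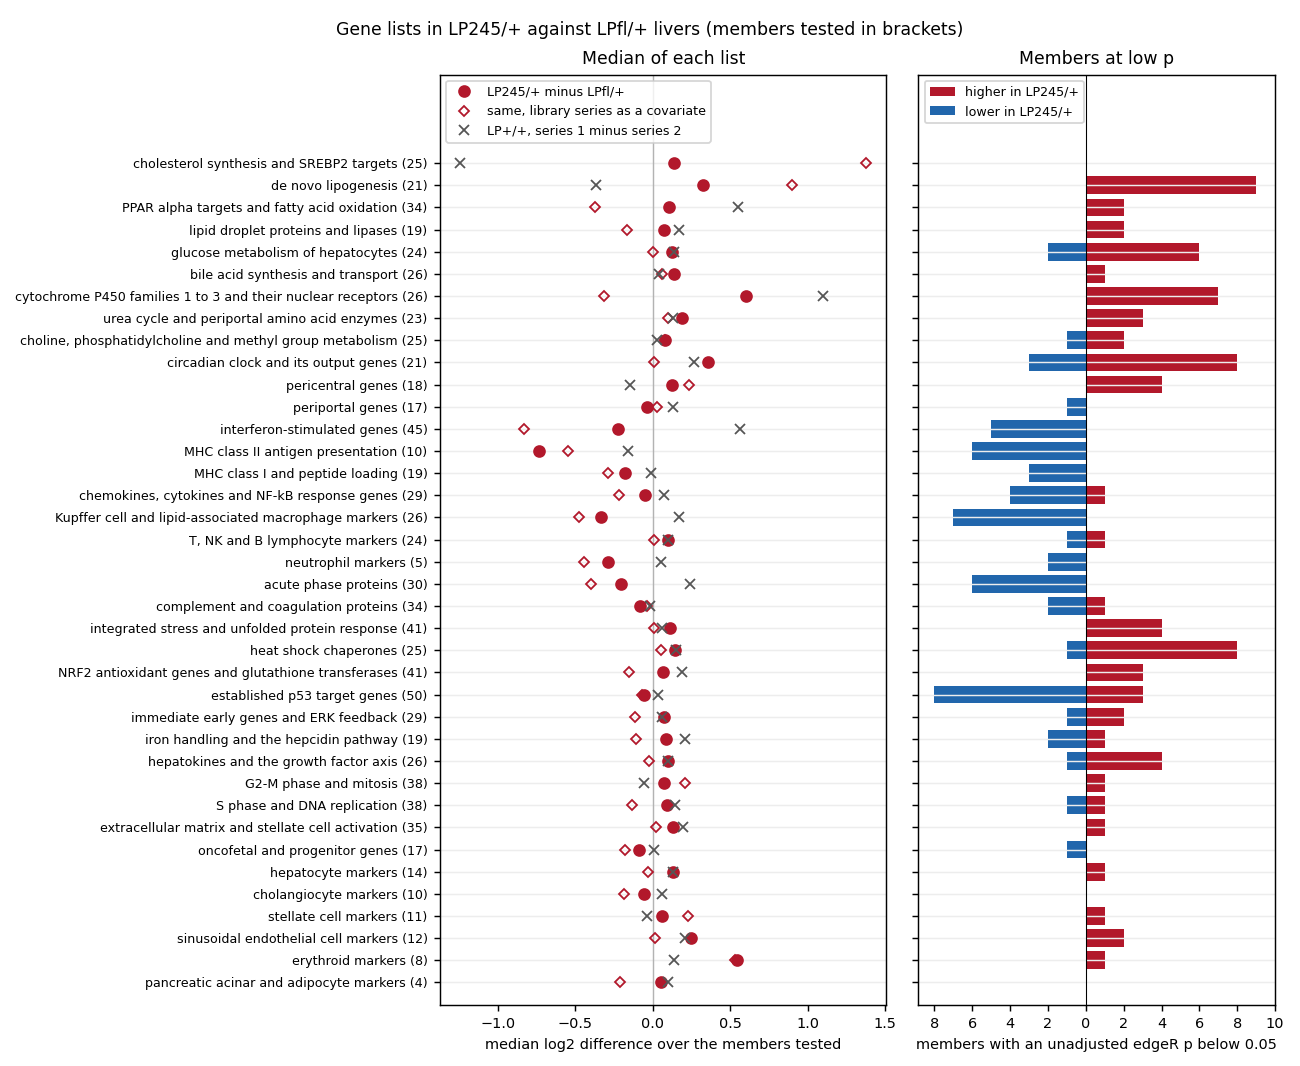
Left, the median log2 difference (x) over the tested members of each of 38 gene lists (y) between LP245/+ and LPfl/+ livers, the same with library series as a covariate, and between the LP+/+ livers of series 1 and series 2. Right, the number of members with an unadjusted edgeR p below 0.05 in each direction. De novo lipogenesis (9 higher), clock (8 higher, 3 lower), heat shock (8 higher, 1 lower) and p53 targets (8 lower, 3 higher) hold the most such members, and the cholesterol and P450 lists have the LP+/+ medians farthest from 0.

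Circadian clock genes had an unadjusted p below 0.05 for 11 of 21 members tested (52.4%, against 8.51% of all genes), 8 higher and 3 lower. Without LPfl/+ replicate 2 there were 3 higher and 2 lower, without LP245/+ replicate 1 5 higher and 3 lower, and without any other of the 5 livers 7 to 11 higher and 2 to 3 lower. The activators Arntl and Npas2 and the repressor Cry1 were lower in LP245/+ livers, and the outputs and repressors Dbp, Ciart, Nr1d1, Per1, Per2, Per3, Tef and Usp2 were higher. Dbp, an output that swings widely over the day, was at 64.8 and 51.5 in LPfl/+ and at 666, 267 and 530 in LP245/+ livers (3.07 ± 0.74). Arntl was at 759 and 831 against 236, 497 and 355 (-1.13 ± 0.32, DESeq2 adjusted p = 0.0327), and Per2 at 399 and 421 against 810, 658 and 619 (0.76 ± 0.15, DESeq2 adjusted p = 0.0121). In LP+/+ livers 10 of these 11 genes, all but Ciart (12.6 in replicate 1 and 62.4 and 11.3 in replicates 2 and 3), had both livers of series 1 on the same side of the series 2 liver as in the comparison. Dbp stood at 23.2 in replicate 1 and at 221 and 102 in replicates 2 and 3, Arntl at 1073 against 538 and 659, and Npas2 at 317 against 51.9 and 103. With series as covariate 0 of the 21 members had a p below 0.05, and the median went from 0.36 to 0.01. Arntl, Nr1d1 and Per3 were added outside the rule. The 3 LP245/+ livers also differed among themselves, with replicate 1 highest and replicate 2 lowest for Dbp, Ciart (104, 34.4 and 67.2) and Per3 (683, 293 and 446). Arrdc3, Zbtb16, Cyp26a1 and Angptl8 had the same order of series in LP+/+ livers as in the comparison. Zbtb16, a zinc finger repressor, was at 604 and 475 in LPfl/+ and at 1821, 1177 and 1798 in LP245/+ livers, with LP+/+ at 620 in series 2 and at 1373 and 870 in series 1 (1.57 ± 0.32, DESeq2 adjusted p = 5.99e-05).

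**Figure D3:**
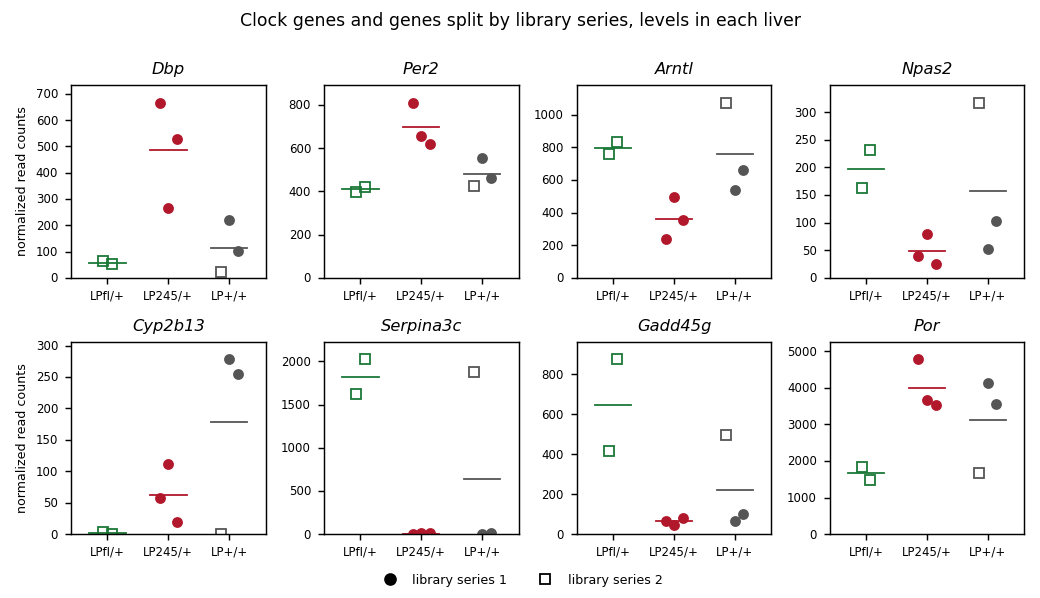
Normalized read counts (y, linear from 0) of 4 clock genes and 4 other genes in each liver, by genotype (x), with filled circles for library series 1, open squares for series 2 and lines at genotype means. For each gene shown every square lies on one side of every circle. The LP+/+ square is a single liver, replicate 1, so series cannot be told apart from that animal among LP+/+ livers.

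Immune genes were mostly lower in LP245/+ livers, and much of that came from 1 LPfl/+ liver. MHC class II genes, which present antigen on macrophages, dendritic cells and B cells, had 8 of 10 members lower and 6 lower at p below 0.05, where 4.44% of all genes were. Their median was -0.74. H2-Eb1, a class II beta chain, was at 954 and 404 in LPfl/+ and at 329, 357 and 321 in LP245/+ livers (-1.01 ± 0.28, adjusted p = 0.376 by edgeR and 0.0425 by DESeq2), beside 390, 324 and 328 in LP+/+ livers. H2-DMb1, which loads peptide, was at 138 and 62.6 against 49.6, 41.4 and 37.7. H2-Ab1 overlapped, with 1369 and 558 against 501, 571 and 376, and so did Cd74, the invariant chain, added outside the rule, with 2848 and 1320 against 1144, 1393 and 1065. LPfl/+ replicate 1 was the high liver each time, and without it the list's median was -0.03 with 0 members at p below 0.05, while without LPfl/+ replicate 2 it was -1.24 with 8. The summed level of all 11 class II genes, none of them at 0 in all 5 livers, was 8537 and 3953 in LPfl/+ and 3440 to 4004 in LP245/+ livers.

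Macrophage markers moved with the same liver. Of 26 tested, 20 were lower in LP245/+ and 7 at p below 0.05 (26.9%, against 4.44% of all genes). The median was -0.33, or -0.11 without LPfl/+ replicate 1. The complement subunits C1qa, C1qb and C1qc, made by Kupffer cells, were at 1636, 1526 and 1091 in LPfl/+ replicate 1, at 1198, 1097 and 788 in replicate 2 and at 995 to 1136, 869 to 1049 and 632 to 708 in the LP245/+ livers. LPfl/+ replicate 2 thus stood just above the LP245/+ range for each of these. The summed level of the 27 markers, all of which had reads, was 28250 and 22580 in LPfl/+ livers and 20130 to 23010 in LP245/+ livers. Bulk RNA cannot tell fewer cells of a type from less RNA per cell, and the part of macrophage content in the immune differences was not tested. T, NK and B cell markers gave 1 of 24 members lower and 1 higher at p below 0.05 (8.33% in either direction, against 8.51% of all genes). The lower was Klrk1, the NKG2D receptor, at 75.0 and 47.5 in LPfl/+ against 30.0, 28.3 and 22.4 in LP245/+ livers (-1.18 ± 0.28). The higher was Ighm, at 124 and 165 against 318, 148 and 750. Neutrophil markers were scarce (Ly6g was at 0 in all 5 livers), and S100a9 was at 48.6 and 50.5 against 35.1, 24.2 and 31.6.

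Interferon-stimulated genes were lower in value in LP245/+ livers for 40 of 45, with a median of -0.22. At p below 0.05 there were 5 lower (11.1%, against 4.44% of all genes). That count was 8 without LP+/+ replicate 2, 3 without LP+/+ replicate 3 and 2 without LP245/+ replicate 3. Tgtp1, an interferon-induced GTPase, was at 166 and 48.5 in LPfl/+ and at 46.5, 32.3 and 23.4 in LP245/+ livers (-1.65 ± 0.50). The chemokine Cxcl9 was at 598 and 220 against 209, 181 and 129. Both were again set by LPfl/+ replicate 1, and without it the list's median was -0.04 with 0 members at p below 0.05. Ifi47 was the most even, with 648 and 550 against 319, 455 and 373. Here LP+/+ livers split the other way, higher in series 1 (0.56), and the covariate lowered the median to -0.83 with 23 members at p below 0.05, so that the size of the difference hung on which livers entered. In MHC class I, Tap1, the peptide transporter, was at 1025 and 742 against 461, 713 and 454 (-0.70 ± 0.22), and 3 of 19 members were lower at p below 0.05. Of chemokines, cytokines and NF-kB genes 4 of 29 were lower and 1 higher at that p. Tnfaip2, a TNF-induced gene, was at 940 and 1225 in LPfl/+ and at 429, 549 and 442 in LP245/+ livers (-1.19 ± 0.24, DESeq2 adjusted p = 0.00119), with LP+/+ at 1007 in series 2 and at 585 and 578 in series 1. Il1b was at 127 and 86.8 against 43.4, 59.6 and 47.9, with the same split of LP+/+ livers (138 against 59.5 and 64.0).

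Acute phase genes, which hepatocytes switch on under IL-6 and IL-1, were also mostly lower in value. Of 30 members 23 were lower in LP245/+ and 6 at p below 0.05, with a median of -0.21, and 3 (without LPfl/+ replicate 2 or LP245/+ replicate 1), 4 (without LPfl/+ replicate 1), 6 or 7 members were lower at that p with 1 of the 5 livers left out. Saa1, serum amyloid A, was at 1258 and 992 in LPfl/+ and at 385, 466 and 403 in LP245/+ livers (-1.43 ± 0.28, adjusted p = 0.362 by edgeR and 0.000243 by DESeq2). The LP+/+ livers, at 707, 941 and 404, covered the ground between. Saa3, the form made outside hepatocytes as well, was at 169 and 109 against 42.4, 48.5 and 38.7 (-1.68 ± 0.32, DESeq2 adjusted p = 0.00159). Lcn2, lipocalin 2, was at 207 and 204 against 70.3, 119 and 66.2, and Mt1, metallothionein, at 183 and 310 against 130, 152 and 109. Saa1 and Saa2 are close copies whose reads can be shared. Complement and coagulation genes had 2 of 34 lower and 1 higher at p below 0.05 (8.82% in either direction, against 8.51% of all genes). C9 was at 21460 and 22890 in LPfl/+ and at 15550, 15990 and 18520 in LP245/+ livers, and C1rb, at 34.5 and 23.2 against 10.3, 0 and 1.02, shares sequence with its copy C1ra.

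**Figure D4:**
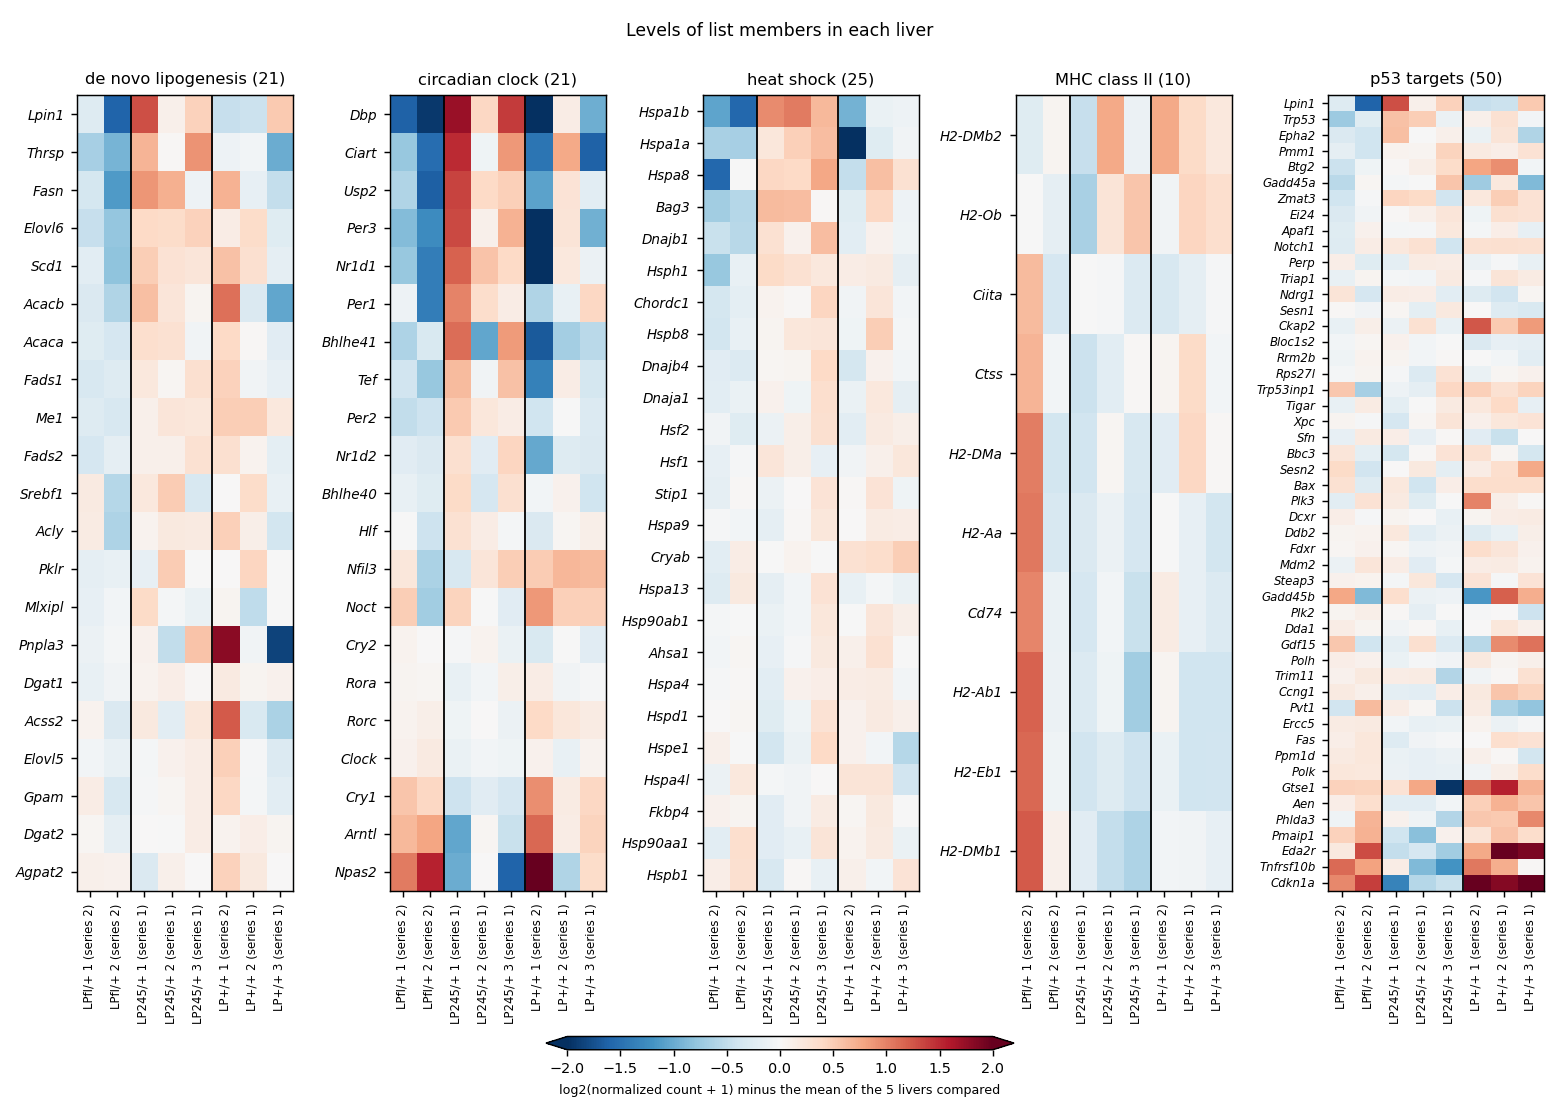
Heat map of every tested member (rows) of 5 gene lists in the 8 livers (columns, grouped by genotype with the library series in brackets), as log2(normalized count + 1) minus the mean of the 5 livers compared. Most MHC class II genes are highest in LPfl/+ replicate 1, Dbp and Npas2 in LP+/+ replicate 1 lie on the side of the LPfl/+ livers, and Cdkn1a is lowest in LP245/+ and highest in LP+/+ livers.

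Among stress genes, heat shock chaperones had 19 of 25 members higher in LP245/+ livers, 8 higher (4.07% of all genes) and 1 lower (4.44%) at p below 0.05, and a median of 0.14. The smallest p-values were those of Hspa1b, Dnajb1 and Bag3. The 1 lower at that p was Hspb1, and Hsp90aa1, Hspd1 and Hspe1 were also lower in value. Hspa1b (chr17:34956436-34959238, minus strand), whose promoter is printed above, was at 39.5 and 27.3 in LPfl/+ and at 160, 172 and 130 in LP245/+ livers, 4.61-fold higher (2.21 ± 0.32, adjusted p = 0.321 by edgeR and 6.81e-07 by DESeq2). LP+/+ livers were at 42.5 in series 2 and at 75.9 and 77.2 in series 1, so LP+/+ livers differed between series in the same direction, and the covariate left 1.36. Hspa1a, its near-identical neighbour, was at 4.05 and 4.04 in LPfl/+ livers and at 8.27, 10.1 and 11.2 in LP245/+ livers, and reads of the pair can be shared. Dnajb1, the HSP40 partner, was at 493 and 459 against 836, 714 and 1034 (0.86 ± 0.16, DESeq2 adjusted p = 0.00262), and Bag3, a co-chaperone, at 314 and 340 against 788, 777 and 513 (1.09 ± 0.23, DESeq2 adjusted p = 0.00335). Hspa8, the constitutive form, was at 5967 and 17660 in LPfl/+ and at 23650, 23470 and 30370 in LP245/+ livers, beside 12800, 27010 and 21860 in LP+/+ livers. The number higher at p below 0.05 was 4 without LPfl/+ replicate 1, 5 without LP245/+ replicate 3, 6 to 9 without any other of the 5 livers, and 3 with the covariate.

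Genes of the integrated stress and unfolded protein responses had 4 of 41 members at p below 0.05 (9.76%). Of all genes 8.51% were at that p in either direction and 4.07% higher. The 4, all higher in LP245/+, were Fgf21, Ddit3, Dnajb9 and Herpud1. Herpud1, of the degradation machinery of the endoplasmic reticulum, was at 11230 and 9685 in LPfl/+ and at 28420, 20950 and 27070 in LP245/+ livers, and Dnajb9, an ER chaperone, at 789 and 1488 against 2652, 2475 and 2816. Ddit3 (CHOP), added outside the rule, was at 150 and 137 against 224, 275 and 321. For Herpud1 the LP+/+ livers read 7557 in series 2 and 22040 and 21010 in series 1, and for Ddit3 110, 289 and 243, the split of the comparison itself, and both changed sign with the covariate. Fgf21 (1.52) and Dnajb9 (0.37) kept their sign. The median of the list was 0.11. It was -0.07 without LPfl/+ replicate 1, with 3 members higher and 4 lower at that p, and 0.31 without LPfl/+ replicate 2, with 11 higher. NRF2 genes, the antioxidant response, gave 3 of 41 members higher at p below 0.05 (7.32%, against 8.51% of all genes in either direction and 4.07% higher). There were 0 without LP245/+ replicate 2. The median of 0.07 turned negative with library totals or the covariate, and was 0.01 without LPfl/+ replicate 2. Nqo1 led, at 96.2 and 83.8 against 132, 159 and 157, with LP+/+ livers at 126, 282 and 190.

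Of p53 target genes 31 of 50 were lower in LP245/+ livers and 19 higher, with a median of -0.06. At an unadjusted p below 0.05, where 4.44% of all genes were lower and 4.07% higher, there were 8 lower, Cdkn1a, Pmaip1, Fas, Tnfrsf10b, Aen, Eda2r, Polk and Ercc5, and 3 higher, Lpin1, Epha2 and Trp53 itself, which is on the list and differs in copy number by design. Cdkn1a (chr17:29090976-29100727, plus strand), the inhibitor p21, was at 75.0 and 99.97 in LPfl/+ and at 14.5, 25.3 and 27.5 in LP245/+ livers. The 3 genotypes did not overlap, since LP+/+ livers held 188, 138 and 184. Cdkn1a was 3.88-fold lower in LP245/+ than in LPfl/+ (-1.96 ± 0.29, adjusted p = 0.321 by edgeR and 2.15e-05 by DESeq2), and the covariate left -1.73. Against the LP+/+ livers of the same series it was -2.79 in LP245/+ and -1.10 in LPfl/+ on the log2 scale. Aen, an apoptosis-enhancing nuclease, was at 288 and 330 in LPfl/+, at 226, 224 and 252 in LP245/+ and at 365, 424 and 385 in LP+/+ livers (-0.40 ± 0.13), again without overlap of any pair of genotypes. Pmaip1 (NOXA) was at 21.3 and 25.2 against 11.4, 8.08 and 16.3, and the death receptors Tnfrsf10b and Eda2r, also near the limit of detection, at 19.2 and 15.2 against 9.30, 4.04 and 3.06 and at 12.2 and 27.3 against 7.23, 8.08 and 6.11. Mdm2, the ligase that degrades p53, did not follow them, at 868 and 1124 in LPfl/+ and at 1044, 811 and 918 in LP245/+ livers (-0.11 ± 0.14). The number lower at that p was 2 without LPfl/+ replicate 2, 4 without LPfl/+ replicate 1 or LP245/+ replicate 1 or 2, and 7 without LP245/+ replicate 3.

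Immediate early and ERK feedback genes gave 2 of 29 higher, Dusp6 (984 and 753 against 1554, 1908 and 1506) and Spry4, and 1 lower, Myc, which LPfl/+ replicate 2 set with 187 against 32.4 in replicate 1 and 22.4 to 40.4 in LP245/+ livers. Dusp6 and Spry4 followed the series in LP+/+ livers (Dusp6 at 835 in series 2 and 2038 and 1309 in series 1). In iron handling Hfe2, hemojuvelin, the co-receptor that drives hepcidin, was at 2223 and 2473 in LPfl/+ and at 1489, 1780 and 1447 in LP245/+ livers (-0.58 ± 0.15). Among hepatokines and growth factor genes 4 of 26 were higher at p below 0.05 and Inhba lower, against 1 higher and 3 lower without LPfl/+ replicate 1. Egfr, the receptor of EGF and a main mitogen receptor of hepatocytes, was at 12130 and 16100 against 37660, 25120 and 24830 (1.05 ± 0.35), with LP+/+ at 23650 in series 2 and 10860 and 11140 in series 1, the opposite order, so that the covariate raised it to 2.16.

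In the G2-M list, whose median turned negative with library totals, 1 of 38 had p below 0.05, Cdc25b, at 23.3 and 18.2 against 35.1, 34.4 and 45.8, and Ccna2, cyclin A, was at 30.4 and 24.2 against 39.3, 38.4 and 42.8. In the S phase list Rrm2, ribonucleotide reductase, was at 105 and 113 against 172, 146 and 170 (0.58 ± 0.19), and Cdt1, the licensing factor, at 58.8 and 70.7 against 28.9, 55.6 and 25.5. The medians of both lists were 0.07 and 0.09. Of the lists for other cell types, 12 of 12 sinusoidal endothelial genes were higher in LP245/+ livers, with 2 at p below 0.05. That count was 0 without LPfl/+ replicate 1 or LP245/+ replicate 1, and 5 without LP245/+ replicate 3. The 2 were Oit3, at 1111 and 1180 against 1448, 1293 and 1401, and Dnase1l3, a nuclease, higher by 0.48. The endothelial median was 0.24. LP+/+ livers differed between series in the same direction, by a median of 0.21, and the covariate left 0.02. Fibrosis genes had 1 of 35 at that p, Timp3, an inhibitor of matrix proteases, higher by 0.47, but 10 higher without LPfl/+ replicate 2, 8 without LP245/+ replicate 3, 5 without LP+/+ replicate 1, 3 without LP245/+ replicate 2 and 0 without LPfl/+ replicate 1. Stellate and cholangiocyte genes had medians of 0.06, which turned negative with library totals, and -0.06. All 8 erythroid genes were higher in value, with 1 at that p, and their summed level was 9841 and 12810 in LPfl/+ and 9223 to 18610 in LP245/+ livers.

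Across all genes tested the LP245/+ against LPfl/+ difference and the LP+/+ difference between series were correlated (Pearson r = 0.45, Spearman rho = 0.271 across 16496 genes, which are not independent and share their libraries' series). Of the 1404 genes at p below 0.05, 1045 (74.4%) had the same sign in LP+/+ livers, against 58.8% of all genes, and 1248 (88.9%) kept their sign with series as covariate, 175 of them (12.5%) at p below 0.05. Of the 56 genes past the cutoff with DESeq2, 45 had the same sign in LP+/+ livers 23 reached at least 0.5 of the difference there, and 55 kept their sign with the covariate. Several of the steepest differences were of this kind. Serpina3c was at 1624 and 2028 in LPfl/+ against 4.13, 8.08 and 9.16 in LP245/+ livers, but at 1881 in LP+/+ replicate 1 and at 6.72 and 11.3 in the others. Myom2 was at 272 and 284 against 0, 1.01 and 0, with 614, 0 and 0 in LP+/+ livers, and Cebpe at 0 in both LPfl/+ livers and in LP+/+ replicate 1 and at 46.5 to 173 in the 5 livers of series 1. Gadd45g, a stress-induced gene, was at 414 and 876 against 65.1, 46.5 and 79.4, with 495, 65.3 and 98.8 in LP+/+ livers. Fgf21 and Cdkn1a had LP+/+ differences between series of 0.05 and -0.23 on the log2 scale, with LP+/+ replicate 1 the only such liver of series 2. Their LP245/+ minus LPfl/+ differences were 1.57 and -1.96, in which genotype and series cannot be told apart. The LP+/+ livers also entered the fit that ranked these genes.

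**Figure D5:**
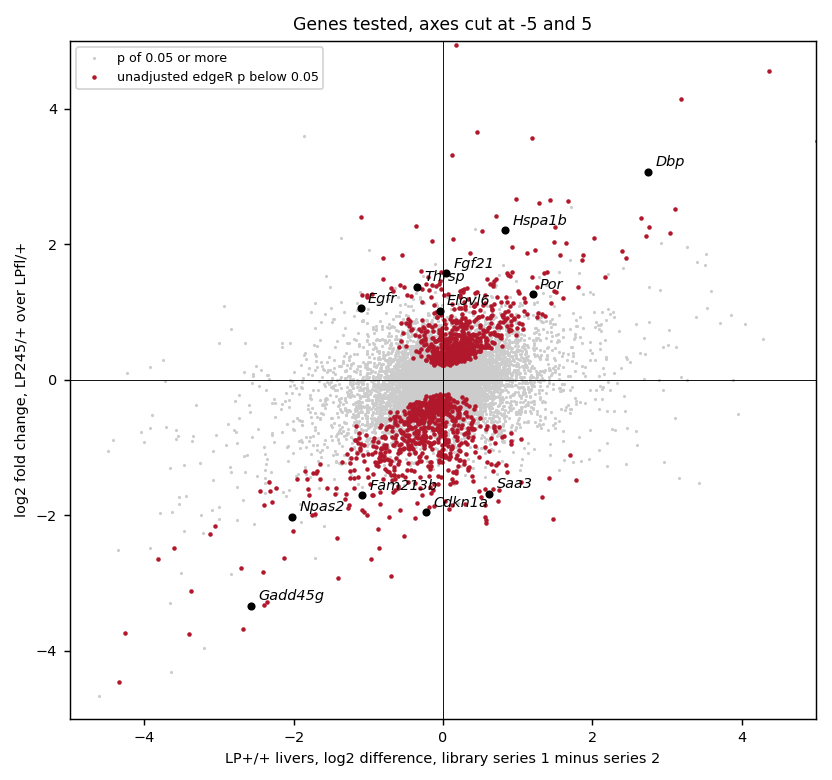
Log2 fold change of LP245/+ over LPfl/+ livers (y) against the log2 difference between the LP+/+ livers of library series 1 and series 2 (x) for each gene tested, with genes at an unadjusted edgeR p below 0.05 in red and axes cut at -5 and 5. Dbp and Gadd45g lie along the diagonal, Fgf21, Elovl6 and Cdkn1a near x = 0, and Egfr and Saa3 in the quadrants of opposite sign.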

How the data were processed

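RNA of 8 mouse livers (3 LP245/+, 2 LPfl/+, 3 LP+/+, grouped by their labels) was sequenced from TruSeq stranded libraries on a HiSeq4000 as 76-bp paired-end reads. The authors aligned the reads with STAR at default settings to GRCm38 and deposited raw read counts per gene by STAR with a GENCODE annotation, whose release and strand setting were not given in the sources used here. The table held 49585 genes, of which 49326 matched a symbol in GENCODE M21. Normalized read counts are deposited counts divided by DESeq2 size factors. Log2 ratios of them used a pseudocount of 1.

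Genes were filtered with filterByExpr, scaled with TMM and tested with edgeR's quasi-likelihood F test (edgeR 4.0.16, limma 3.58.1, R 4.3.3) with all 8 livers in the fit and LP245/+ minus LPfl/+ as the contrast. SE is the log2 fold change over the square root of F. All adjusted p-values are Benjamini-Hochberg values over all genes tested, by edgeR or by DESeq2 1.42.0 as named. On simulated data with a coefficient of variation of 0.2 between animals for every gene and no series difference, the test recovered 200 of 200 genes changed 4-fold. It made 3 wrong calls among 16412 genes there, and called 0 of 16307 when none was changed. The simulation checks that the code runs as meant. It does not give the power of the test in these livers, where spread differs between genes and library series differ. No 2 libraries were alike within sampling noise. Alternatives were DESeq2, RLE factors, library totals, no filter or at least 10 counts in every liver, glmTreat, the 5 livers alone, a replicate block, library series as covariate and leaving out each liver.

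Genes are named by rule: the up to 3 members of each list with the smallest p, the 12 smallest p of all genes tested, the 10 largest differences in each direction among protein-coding genes with p below 0.05, no overlap and a mean of at least 20 normalized counts, the 12 lowest DESeq2 adjusted p-values past the cutoff, and Trp53, Cdkn1a, Mdm2, Fgf21, Alb and Cyp7a1. Genes outside it were named after their values were seen: Fasn, Lpin1, Scd1, Arntl, Nr1d1, Per3, Cyp2b10, Hspa8, Hspa1a, Ddit3, Pmaip1, Tnfrsf10b, Eda2r, Cd74, G6pc, Angptl8, Aacs, Cyp4a14 and Sqle, and members listed by name only. The comparison and all lists were chosen with earlier results of these data known. Promoters came from RefSeq (GRCm38.p6). Each library is a separate animal by its label. Some genes that the rule names are not reported here.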

Additional observations from a re-analysis of the deposited data

How the results depend on the processing

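The count past the cutoff, 0 with edgeR over 8 livers, was 56 with DESeq2, 122 with no filter on low counts (56 of them shared with DESeq2), 51 with the 5 livers alone and 10 with series as covariate. It ranged from 0 to 47 as each liver was left out, with 47 without LP+/+ replicate 1, of which 42 were shared with the 51, 2 without LPfl/+ replicate 2 (Eif3j2 and H2-Eb1), 2 without LP245/+ replicate 1 (C1s2 and Gm13394) and 3 without LP245/+ replicate 3 (Cd1d2, Rps3a2 and Rps3a3). It stayed 0 with RLE factors, library totals, at least 10 counts in every liver, glmTreat and no fold cutoff. Genes at an unadjusted p below 0.05 numbered 870 with the covariate and 1056 to 1769 as each liver was left out. The causes were not tested. Trp53 ranged from 0.59 to 1.09 as each liver was left out.

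With series as covariate these log2 fold changes changed sign: Cyp2c37 to -0.17, Cyp2b13 to -3.06, Cyp2b10 to -4.46, Cyp4a14 to -4.91, Cyp8b1 to 0.24, Ppara to -0.011, Cidea to -3.25, Chka to 0.098, Oat to -0.13, Sqle to 3.38, G6pc to 0.20, Npas2 to 0.0099, Nr1d1 to -0.66, Per3 to -0.046, Il1b to 0.080, Herpud1 to -0.22, Ddit3 to -0.34, Nqo1 to -0.18, Hspa1a to -1.27, Dusp6 to -0.068, Spry4 to -0.43, Angptl8 to -0.44, Arrdc3 to -0.50, Alb to -0.42, Myom2 to 3.04 and Cebpe to -0.79. Mdm2 ranged from -0.28 without LPfl/+ replicate 1 to 0.097 without LPfl/+ replicate 2. Of the 38 list medians, 11 changed sign with the covariate, 7 without LPfl/+ replicate 1 and 4 with library totals. Deviations from the group mean correlated at -0.0822 for replicate number 1 and 0.0105 for number 2. With 2 LPfl/+ livers these deviations mirror each other, so the correlations cannot show whether replicate numbers pair the livers. A replicate block left 0 genes past the cutoff, 1196 at p below 0.05 and Trp53 at 0.96. With 3 and 2 livers, whose library series never overlap, neither the absence of a difference nor its tie to genotype can be read from these counts.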

Other observations

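Outside the gene lists, Fam213b, a prostamide synthase, was among the 12 smallest p-values, at 621 and 525 normalized read counts in LPfl/+, 175, 180 and 172 in LP245/+ and 474, 235 and 212 in LP+/+ livers. Its log2 fold change was -1.70 ± 0.29 (DESeq2 adjusted p = 2.13e-05) and -0.62 with library series as a covariate. Fam89a was at 302 and 326 against 117, 65.7 and 40.7, with LP+/+ livers at 108, 230 and 93.2 and no split by series (-2.07 ± 0.44, DESeq2 adjusted p = 0.000399). Mtss1, a membrane-curving adaptor of actin, was at 2119 and 2005 against 5115, 4013 and 3977 (1.09 ± 0.23, DESeq2 adjusted p = 0.000821). Its LP+/+ livers differed between series in the same direction, by 0.64 on the log2 scale.

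Of noncoding genes, Mir99ahg, the host transcript of a microRNA cluster, was at 364 and 370 in LPfl/+ and at 194, 209 and 236 in LP245/+ livers, beside 231, 241 and 282 in LP+/+ livers (-0.78 ± 0.14, DESeq2 adjusted p = 0.0108). The antisense gene Gm28836 was at 29.4 and 27.3 against 66.1, 71.7 and 74.3, with LP+/+ livers at 37.7, 50.9 and 39.5. The strand setting of the counts was not given in the sources used here, so its reads and those of an overlapping gene may not be separable. Mroh2a, a HEAT repeat gene, was at 127 and 108 against 234, 213 and 202, with LP+/+ livers at 159, 187 and 174 between the genotypes (0.88 ± 0.17, DESeq2 adjusted p = 0.0119). Foxq1, a forkhead factor, depended on LPfl/+ replicate 2, with 681 there, 93.2 in replicate 1 and 41.8 to 72.3 in LP245/+ livers.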
